A study of Mus musculus with 6 samples.

Results

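The Hes and Hey genes encode basic helix-loop-helix repressors, several of which are switched on by the Notch receptor. The genes described here are Hes1, Hes5, Hes6, Hes7, Hey1, Hey2 and Heyl, chosen by name, with 1 probe set for each, the brightest of those that name that gene alone. All 7 were found among the 22180 genes measured. They were read on 6 Affymetrix Mouse Gene 2.0 ST arrays of neurospheres, floating colonies of neural stem and progenitor cells, from the subventricular zone of 2-month-old CD1 mice, an outbred stock. In the MG group, 3 arrays came from offspring of mothers injected intraperitoneally with 0.5 mg/kg MG, read here as methylglyoxal from the series title, 2 times a day from gestational day 12 until birth. In the PBS group, 3 arrays came from offspring of mothers given PBS on the same schedule. All cultures shared 7 days of growth in EGF and FGF2, both mitogens, and the titles call them primary neurospheres while the descriptions call them secondary. The labels do not say whether animals of a group had the same mother, so p-values measure only the spread between these cultures, and a difference between litters cannot be told apart from the injections.

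In the Notch pathway, a ligand on one cell opens the receptor on its neighbour, and the freed receptor tail joins the DNA-binding protein RBPJ to switch on genes such as Hes1, Hes5, Hey1, Hey2 and Heyl. Hes1 and Hes5 repress proneural genes and thereby hold neural progenitors undifferentiated. Hey1 and Hey2 act in the brain and are also known from blood vessels and the heart, and Heyl from vascular smooth muscle. Hes7 is known as the oscillator of somite segmentation. Hes6 is the exception in role, since it binds Hes1, relieves its repression and promotes neuronal differentiation. The family works by recruiting Groucho co-repressors, encoded by the Tle genes.

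The windows around the start sites are shown because they hold, or lack, the letters of the core that RBPJ recognises. They come from the RefSeq promoter table on GRCm38.p6, which matched 4 of the 7 members, and each runs from 250 bases before a gene's start site to 50 bases after it. Sequences are written 5′ to 3′ on the gene's strand, and capitals mark GTGGGAA or its reverse complement TTCCCAC.
Hes5 chr4:154960673-154960972, plus strand: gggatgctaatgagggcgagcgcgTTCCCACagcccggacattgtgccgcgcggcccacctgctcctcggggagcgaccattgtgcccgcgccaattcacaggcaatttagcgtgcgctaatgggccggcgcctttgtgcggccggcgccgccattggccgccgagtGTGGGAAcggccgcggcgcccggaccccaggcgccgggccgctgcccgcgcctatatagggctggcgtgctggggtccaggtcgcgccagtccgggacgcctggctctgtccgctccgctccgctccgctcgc
Hey2 chr10:30842734-30843033, minus strand: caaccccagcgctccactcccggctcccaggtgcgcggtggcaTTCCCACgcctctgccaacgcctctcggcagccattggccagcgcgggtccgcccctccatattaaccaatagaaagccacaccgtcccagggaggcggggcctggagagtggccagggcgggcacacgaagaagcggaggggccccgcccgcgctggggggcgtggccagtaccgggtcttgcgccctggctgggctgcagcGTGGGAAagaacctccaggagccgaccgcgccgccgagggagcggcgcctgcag
Hes7 chr11:69120203-69120502, plus strand: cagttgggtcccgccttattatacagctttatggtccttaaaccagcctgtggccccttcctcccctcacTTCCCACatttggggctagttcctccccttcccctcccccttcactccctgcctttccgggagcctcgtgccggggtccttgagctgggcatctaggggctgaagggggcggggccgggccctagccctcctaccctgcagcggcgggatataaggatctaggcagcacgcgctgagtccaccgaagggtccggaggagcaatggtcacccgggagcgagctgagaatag
Hes6 chr1:91413173-91413472, minus strand: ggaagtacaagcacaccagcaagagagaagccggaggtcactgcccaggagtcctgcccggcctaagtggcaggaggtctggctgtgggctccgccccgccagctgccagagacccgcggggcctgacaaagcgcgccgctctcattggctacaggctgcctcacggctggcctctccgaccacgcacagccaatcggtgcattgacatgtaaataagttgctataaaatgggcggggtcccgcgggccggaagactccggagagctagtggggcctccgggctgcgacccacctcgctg
The Hes5 window held 2 matches, whose first bases lay at -226 and -83 from the start site. The Hey2 window also held 2, at -207 and -4. The Hes7 window held 1, at -180. Hes6 had 2 windows, of which the one with a TATA-like run is printed, and neither held a match. Among all 32851 windows in the table, 6.38% held at least 1 match and 0.256% held 2 or more. A match is a description of the letters and not a measured site. The N box CACNAG and the class C box CACGNG, sites that Hes proteins bind, were searched on both strands as well. The windows of Hes5 and Hey2 held neither. The Hes7 window held 1 N box and 2 class C boxes, the N box overlapping 1 of these class C boxes, while the printed Hes6 window held 2 N boxes. Of all windows, 42.5% held an N box and 27.5% a class C box.

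All 7 genes gave signal above the level of receptors that neural cells are not expected to use. That level, 5.02 on the log2 scale, was the 95th percentile of the mean values of 1390 olfactory and vomeronasal receptor genes. Hes1, Hes5, Hes6, Hey1 and Hey2 had means over the 6 arrays of 8.23, 8.73, 8.44, 9.76 and 7.20, each exceeded by the mean of only 1 of those receptor genes. Hes7 and Heyl lay nearer the receptor level, at 6.12 and 5.82, with 12 and 20 receptor genes above them. Brightness differs between probe sets for reasons other than RNA amount, so these levels are not ranked against each other.

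Most listed markers of neural stem cells were above the receptor level, as were most of those of the lineages they give rise to. Of 11 stem cell and radial glia genes, 10 were above the receptor level in both groups, among them Nes at 10.6 to 10.7 in MG cultures and 10.6 to 10.9 in PBS cultures. So were 7 of 8 astrocyte, 8 of 8 oligodendrocyte lineage and 9 of 9 neuroblast and neuron genes, so these counts do not single out stem cells. Of all 22180 genes, 13704 were above it in both groups, and the level is lower than the array medians of 5.25 to 5.42. A gene counted here may thus be dim, as was Dcx, at means of 5.51 in MG cultures and 5.08 in PBS cultures. Hey genes are also known in vessel cells. Of the genes listed for these, 4 of 10 endothelial and 7 of 10 pericyte and smooth muscle genes were above the receptor level in both groups. Per array, the endothelial list averaged 4.88 to 5.0 in MG cultures and 4.91 to 5.14 in PBS cultures. The pericyte and smooth muscle list averaged 5.94 to 6.23 in MG cultures and 5.94 to 6.24 in PBS cultures. The endothelial genes Tie1, Emcn and Tek were below the receptor level on average in both groups, while the VEGF receptor genes Flt1, at means of 7.24 in MG cultures and 7.04 in PBS cultures, and Kdr, at 6.57 in MG cultures and 6.47 in PBS cultures, were above it. In the endothelial list, 4 genes had higher and 6 lower means in MG, beside 53.8% and 46.2% of all genes. The median log2 difference of that list was -0.06. Esam (-0.51, unadjusted p = 0.0105 in limma) and Tie1 (-0.36, unadjusted p = 0.0257 in limma) were lower in MG without overlap, beside 3.31% of all genes. Esam was below the receptor level in MG cultures. The defining pericyte gene Pdgfrb had 5.13, 5.19 and 4.66 in MG cultures and 5.06, 5.17 and 5.25 in PBS cultures. Of the 10 pericyte and smooth muscle genes, 4 had higher and 6 lower means in MG, beside 53.8% and 46.2% of all genes. Their median log2 difference was -0.09. The smooth muscle genes Acta2 and Tagln were bright and had higher means in MG, the direction of Hey2. Myh11 and Cnn1 went the other way, with differences of -0.15 and -0.14. Des, below the receptor level in MG cultures, differed by -0.33 without overlap (unadjusted p = 0.0149 in limma). Acta2 read 10.4, 10.8 and 10.2 in MG cultures and 9.92, 10.4 and 8.83 in PBS cultures (log2 difference 0.76, unadjusted p = 0.0733 in limma), and Tagln had means of 7.57 in MG cultures and 7.10 in PBS cultures (difference 0.47, unadjusted p = 0.0919), neither passing after adjustment. The part of vessel cells in the Hey values was not tested, and fewer cells of a type and less RNA per cell cannot be told apart in these bulk cultures.

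None of the 7 genes passed the test between MG and PBS, and Hey2 and Hes5 had the largest differences in mean, both toward higher values in MG. Hey2 was 1.26-fold and Hes5 1.28-fold higher in mean. The other 5 had log2 differences between 0.00 and 0.11 in size. The test was limma's moderated linear model fitted over all 22180 genes, with Benjamini-Hochberg adjustment, and each member's adjusted p was 0.9998. Over all genes the adjusted calls came to 0, which is 0%. An unadjusted p under 0.05 was found for 712 genes, 3.21%. Of the members, 6 of 7 had a higher mean in MG, where 53.8% of all genes did, and 1 (Hes7) had a lower mean, as 46.2% of all genes did. The median log2 difference of the members was 0.05, beside 0.01 for all genes.

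**Figure D1:**
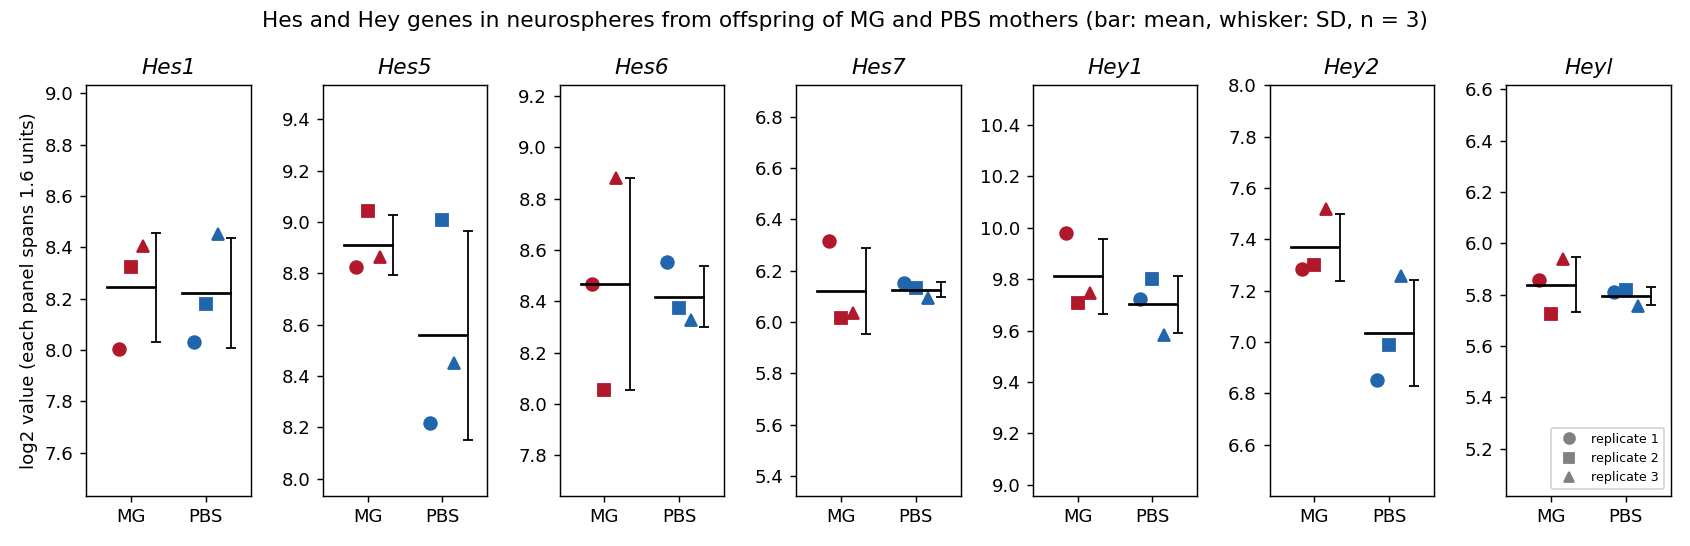
Log2 values of each Hes and Hey gene (vertical axis, every panel spanning 1.6 units) in MG and PBS cultures, with marker shape for replicate number, a bar at the mean and a whisker for the SD (n = 3). Hey2 is the member whose groups do not overlap, by 0.03 between the lowest MG and the highest PBS value, and PBS cultures spread most for Hes5, where the SD is 0.41.

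Hey2, a Notch target that keeps progenitors of several tissues from differentiating, had log2 values of 7.29, 7.30 and 7.52 in MG cultures, against 6.85, 6.99 and 7.26 in PBS cultures. The groups did not overlap, but the lowest MG culture stood only 0.03 above PBS replicate 3. MG exceeded PBS by 0.34 on the log2 scale (standard error 0.14), with 95% confidence limits of 0.00 and 0.67. Its unadjusted p in limma was 0.0492. An exact permutation test, two-sided, returned p = 0.1, and no smaller p is possible with 3 cultures a group. Of all genes, 1.81% had an unadjusted p under 0.05 with a higher mean in MG, and 4.03% had all MG values above all PBS values. In the other direction, 3.31% had all MG values below all PBS values, which makes 7.34% without overlap in either. Hey2 was the 1 member of 7 with an unadjusted p under 0.05 and the 1 member with all MG values above all PBS values, and no member had all MG values below. Its fold had 95% confidence limits of 1.001 and 1.59.

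Hes5, the Hes gene most closely tied to Notch activity in neural stem cells, read 8.82, 9.04 and 8.86 in MG cultures. In PBS cultures it read 8.22, 9.01 and 8.45. The MG cultures lay close together, with an SD of 0.12, while PBS replicate 2 stood among the MG values and the other PBS cultures below them, giving an SD of 0.41. The log2 difference of 0.35 (standard error 0.20) had 95% confidence limits of -0.12 and 0.82. Its unadjusted p was 0.121, and an exact permutation test, two-sided, returned p = 0.3. Without PBS replicate 2 the difference was 0.58 (unadjusted p = 0.00741 in limma), and without PBS replicate 1 it was 0.18. A second probe set named Hes5 alone, with 6.52, 6.58 and 6.11 in MG cultures and 6.03, 6.47 and 6.18 in PBS cultures. On that probe set the groups overlapped more, since MG replicate 3 fell below PBS replicates 2 and 3, and the log2 difference was 0.18.

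Hes1, the Notch target best known for oscillating in neural progenitors, had nearly equal means in the groups. Its values were 8.005, 8.32 and 8.41 in MG cultures and 8.03, 8.18 and 8.45 in PBS cultures. The difference was 0.02 with a 95% confidence interval from -0.35 to 0.39, or fold limits of 0.784 and 1.31. The spread lay within the groups, where replicate 3 was the highest culture of each. Those same cultures stood apart in many genes, and not in those of DNA replication alone. The mean of 32 replication and S phase genes, relative to their average over the 6 arrays, was 0.48 in MG replicate 3 and 0.43 in PBS replicate 3, and between -0.41 and -0.11 elsewhere. For 8 astrocyte genes it was -0.39 in each of these 2 cultures and between -0.04 and 0.32 elsewhere. On the axis of largest variance over all genes (first principal component, 44.1%), they were at 37.6 and 21.0, and the others between -21.3 and -9.86. Hey2 too had its highest value of each group in replicate 3. With both arrays numbered 3 left out, MG minus PBS was 0.37 for Hey2 and 0.06 for Hes1. The part of these differences between cultures in the Hes1 and Hey2 values was not tested.

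Hey1, a Notch target of neural progenitors and of vessels, had values of 9.98, 9.71 and 9.75 in MG cultures and 9.72, 9.80 and 9.58 in PBS cultures. MG replicate 1 was the highest of the 6 and PBS replicate 3 the lowest, and the remaining 4 interleaved. MG minus PBS was 0.11 (standard error 0.13, unadjusted p = 0.421 in limma). Hes6, the antagonist of Hes1, read 8.47, 8.05 and 8.88 in MG cultures and 8.55, 8.37 and 8.33 in PBS cultures. Here the MG group held both the highest and the lowest culture, with an SD of 0.41 against 0.12 in PBS, and the log2 difference was 0.05 with a 95% confidence interval from -0.42 to 0.52. Without MG replicate 3 the difference of Hes6 was -0.16, a turn of direction in a value that was never called.

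Hes7 and Heyl had the smallest ranges over the 6 arrays among the members, 0.30 and 0.21 on the log2 scale. Hes7 had 6.31, 6.02 and 6.03 in MG cultures and 6.15, 6.13 and 6.09 in PBS cultures. MG replicate 1 was the highest culture and the other MG cultures were the lowest, so the PBS values sat between them. Heyl read 5.86, 5.72 and 5.94 in MG cultures and 5.81, 5.82 and 5.76 in PBS cultures. Its MG replicates 1 and 3 were above every PBS culture and MG replicate 2 was below them all. The log2 differences were 0.00 for Hes7, with a 95% confidence interval from -0.29 to 0.29, and 0.04 for Heyl, from -0.22 to 0.31. The second Hes7 probe set, at 5.20, 5.22 and 5.30 in MG cultures and 5.30, 4.97 and 5.31 in PBS cultures, lay at the receptor level.

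**Figure D2:**
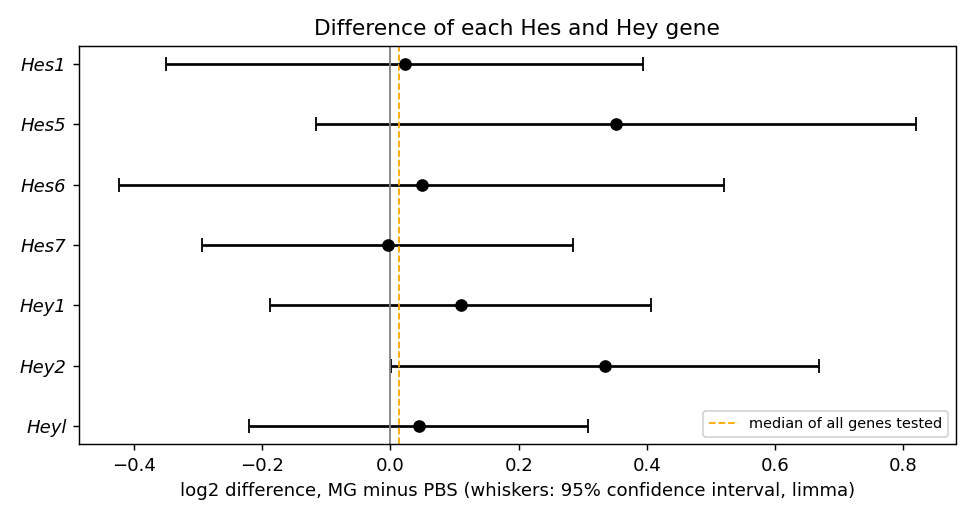
Log2 difference, MG minus PBS, for each gene (horizontal axis), with whiskers for limma's 95% confidence interval and a dashed line at the median of all genes. The interval of Hey2 starts at 0.00 and those of the other 6 genes include 0.

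The genes were next set against each other across the 6 arrays, to see whether they, and the Notch targets among them, moved together. The 7 members did not move as one block. Of 21 pairs, 14 had a positive and 7 a negative Pearson correlation, with a median r of 0.18. These pairs include those of Hes6 and Hes7. Among Hes1, Hes5, Hey1, Hey2 and Heyl, only Hes1 with Hey1 (r = -0.73) and Hes1 with Heyl (r = -0.12) had a negative r. Hey1 with Hey2 (r = 0.02) and Hes5 with Heyl (r = 0.10) were near 0. After each group's mean was subtracted, these pairs had r of -0.58 and -0.12. The share of positive r among other gene pairs was not computed, so the signs are only a description. No pair passed after Benjamini-Hochberg adjustment over the 21 pairs, where the lowest adjusted p was 0.35 (exact two-sided permutation test), and 1 pair had an unadjusted p under 0.05. The smallest p that 6 arrays allow is 0.00278. These correlations describe 6 cultures that also share their array and the distance of the cultures numbered 3 from the others. Values of r over 4 arrays are given as descriptions with no test.

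The pair with the highest correlation was Hes6 and Heyl, with r = 0.93 (exact permutation p = 0.0167, adjusted p = 0.35) and a Spearman rho of 0.83 (exact permutation p = 0.0583, adjusted p = 0.715). Both had their highest value in MG replicate 3 and their lowest in MG replicate 2, and without these arrays, the ones farthest from the median of Hes6, r was 0.53. Without the arrays numbered 3 it was 0.86. Among the classical targets, Hes1 and Hey2 had r = 0.61 (exact permutation p = 0.217, adjusted p = 0.91) and rho = 0.37 (exact permutation p = 0.497, adjusted p = 0.803). Without MG replicate 1 and PBS replicate 1, the arrays farthest from the median of Hes1, r was 0.76, and without the arrays numbered 3 it was 0.35. After each group's mean was subtracted, r was 0.87, with replicate 3 the highest culture of each group for both genes. Hes5 and Hey2, the members with the largest differences in mean, had r = 0.47 (exact permutation p = 0.286, adjusted p = 0.941) and rho = 0.54 (exact permutation p = 0.297, adjusted p = 0.78). With group means removed their r was 0.04, and without PBS replicates 1 and 3 r was -0.53, but without the arrays numbered 3 it was 0.68. Hes1 and Hes5, the main Notch effectors in neural stem cells, had r = 0.18 (exact permutation p = 0.717, adjusted p = 0.941) and rho = 0.14 (exact permutation p = 0.803, adjusted p = 0.937). PBS replicate 1 was low for both genes, and r was -0.40 without it and -0.75 without MG replicate 1 and PBS replicate 1. Without the arrays numbered 3, r of Hes1 and Hes5 was 0.66, so its sign depended on which arrays were left out.

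Hes1 ran opposite to Hey1 and to Hes7 in these cultures. Its r was -0.73 with Hey1 (exact permutation p = 0.0806, adjusted p = 0.564) and -0.79 with Hes7 (exact permutation p = 0.05, adjusted p = 0.525). The Spearman rho was -0.71 with Hey1 (exact permutation p = 0.136, adjusted p = 0.715) and -0.77 with Hes7 (exact permutation p = 0.103, adjusted p = 0.715). MG replicate 1 had the lowest Hes1 value and the highest Hey1 and Hes7 values of the 6 arrays. Without MG replicate 1 and PBS replicate 1, r was -0.80 with Hey1 and -0.44 with Hes7, and without the arrays numbered 3 it was -0.59 and -0.88. Hey1 and Hes7 in turn had r = 0.76 (exact permutation p = 0.144, adjusted p = 0.758) and rho = 0.60 (exact permutation p = 0.242, adjusted p = 0.725), but r was 0.12 without MG replicate 1 and 0.14 without MG replicates 1 and 2. It was 0.91 without the arrays numbered 3, which keeps MG replicate 1.

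**Figure D3:**
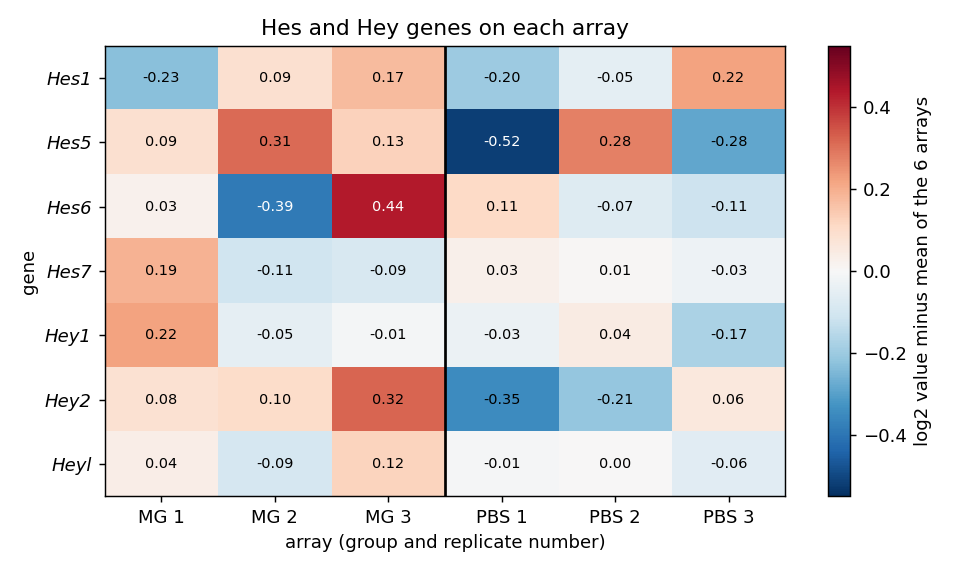
Each gene's log2 value minus its mean over the 6 arrays (colour and printed value), with MG arrays left of PBS arrays. Hes1 is low in both arrays numbered 1, at -0.23 and -0.20, and high in both numbered 3, at 0.17 and 0.22, while Hes5 has its lowest value, -0.52, in PBS replicate 1.

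**Figure D4:**
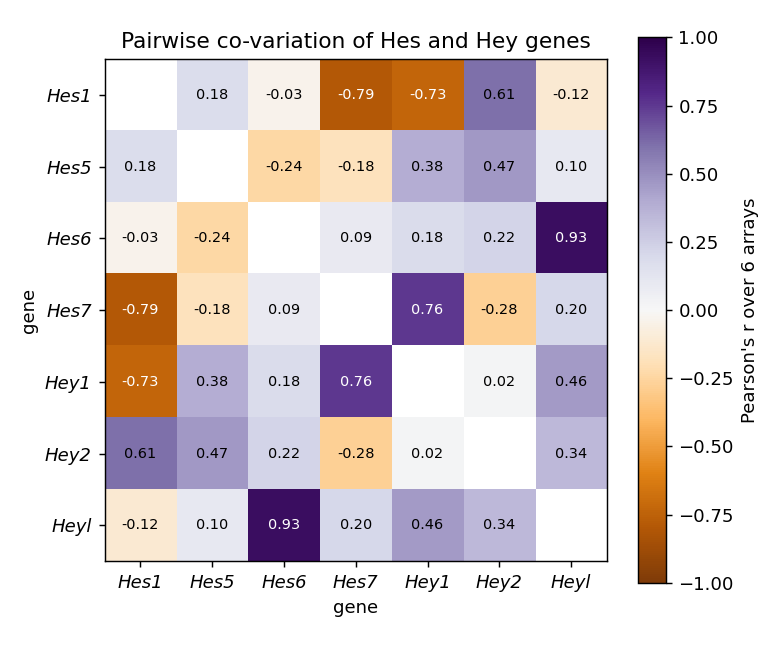
Pearson's r over 6 arrays for each pair of Hes and Hey genes (colour and printed value). Hes6 with Heyl stands at 0.93, and Hes1 with Hes7 and Hey1 at -0.79 and -0.73.

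The genes whose pattern was most like each member's were listed by Pearson's r over the 6 arrays, as a description, among the 13704 genes above the receptor level in both groups. For Hes1 these were Fbn2, Ccdc57 and Ankle1, with r of 0.99 each. Fbn2, which encodes the matrix protein fibrillin 2, read 8.40, 9.09 and 9.18 in MG cultures and 8.40, 8.69 and 9.22 in PBS cultures, so it repeated the high replicate 3 of each group. For Hey2 they were Kifc1, Shkbp1 and Iqsec2, with r of 0.98 each. Kifc1, a kinesin of the mitotic spindle, read 7.75, 7.62 and 8.06 in MG cultures and 7.03, 7.18 and 7.75 in PBS cultures. For Hes5 they were Actc1, Hykk and Gtf2f1, with r from 0.956 to 0.965. Hes5 had the fewest close companions, with r over 0.9 for 41 genes, or 0.299% of those compared, and the other 6 members had between 125 and 328. For Hey1 they were Mpst, Gcc1 and Kbtbd4, and for Heyl Tmem222, Akt1s1 and Efnb2. For Hes7 they were Adh5, Atp6v1h and Limk1, and for Hes6 Fam160a2, Ccdc71 and Recql5, with r from 0.974 to 0.998 over these 12 genes. Among the other members, between 0.912% and 2.39% of the genes compared had an r over 0.9. The same share was not computed for genes outside the members, so these counts are not read as a trait of Hes5.

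Around the repressors, the ligand gene Dll3 and the partner gene Id4 had higher means in MG without overlap, but no gene of the pathway passed the adjusted test. The lists held 76 different genes apart from the members and the replication genes. Of these, 54 had a higher and 22 a lower mean in MG, beside 53.8% and 46.2% of all genes. Their median log2 difference was 0.05. Those with an unadjusted p under 0.05 were 4 with higher and 1 with lower means in MG, beside 1.81% and 1.4% of all genes. Among these, Dll3 and Id4 were above the receptor level, while Helt, Neurod1 and Neurog1 were below it in both groups. Dll3, Id4, Notch1, Tle1, Neurod1 and Helt had all MG values above all PBS values, beside 4.03% of all genes. Neurog1 had all MG values below, beside 3.31%. Every adjusted p given for these lists in limma was 0.9998.

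Among 8 ligand genes, 6 had higher means in MG, with a median log2 difference of 0.06. Dll3, a divergent Delta family member, read 8.48, 8.41 and 8.79 in MG cultures and 8.16, 8.28 and 8.19 in PBS cultures, so that MG minus PBS was 0.35 (standard error 0.14, unadjusted p = 0.0335 in limma). Every MG culture was above every PBS culture. Jag1, a Notch ligand of the Serrate type, differed by 0.37 but with a standard error of 0.28, and its values overlapped. Dll1, the ligand that drives lateral inhibition, differed by 0.01. Of the 4 receptor genes, Notch1, Notch2 and Notch3 had higher means in MG, by 0.16, 0.15 and 0.12. Notch4, a receptor best known from endothelium, had a lower mean, with 6.20, 6.54 and 6.17 in MG cultures and 6.54, 6.51 and 6.62 in PBS cultures (log2 difference -0.25, unadjusted p = 0.101 in limma). Notch1 did not overlap between groups, with a standard error of 0.12 (unadjusted p = 0.228 in limma).

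Of 17 genes listed around receptor processing, 13 had higher means in MG, where 53.8% of all genes did. None had an unadjusted p under 0.05. The list includes Numb, Numbl, Itch and Mib1, and not all of its genes favour Notch signalling. The count therefore gives no direction for the pathway. Pofut1, which puts O-fucose on Notch, differed by 0.20, and the fringe gene Mfng by 0.34 with a standard error of 0.23. For the RBPJ complex and its co-factors, 7 of 10 genes had higher means, all 10 differences lay between -0.10 and 0.09, and Rbpj itself differed by 0.00. The genes with the smallest p there were the acetyltransferase gene Kat2b (0.09) and the co-activator gene Maml3 (-0.10). Of the 6 Groucho genes, 5 had higher means. Tle1 was higher in every MG culture than in any PBS culture, by a mean of 0.11, and Tle5, a short family member, differed by 0.14.

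Of 11 other Notch-linked genes, 8 had higher means in MG, with a median of 0.05. Nrarp, a direct target and feedback inhibitor of Notch, read 9.21, 9.29 and 8.53 in MG cultures and 8.78, 8.91 and 8.43 in PBS cultures, with replicate 3 the lowest of each group. MG minus PBS was 0.30 (standard error 0.22, unadjusted p = 0.210 in limma). Vcam1, an adhesion molecule of niche stem cells, differed by 0.38 with a standard error of 0.21. Hes1 and Nrarp thus took opposite positions on the arrays numbered 3. Genes that Hes factors repress were split, 6 higher and 4 lower of 10. Of these 10 only 6 were above the receptor level in both groups. Dll3, given above as a ligand, is among those 6. It was the only one of them with an unadjusted p under 0.05 (0.0335 in limma), at a log2 difference of 0.35. Neurog1, a proneural gene, had 4.30, 4.28 and 4.67 in MG cultures and 4.91, 4.90 and 4.72 in PBS cultures, all below the receptor level, so no fold is given for it (unadjusted p = 0.0174). Neurod1 was also below that level throughout. Neurog2, above it, had a log2 difference of -0.18 (unadjusted p = 0.313).

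Among the other Hes-related genes, Helt had the smallest p (0.00299, unadjusted) but lay below the receptor level on every array, at 4.30 to 4.34 in MG cultures and 3.76 to 3.91 in PBS cultures. Bhlhe41, a clock-linked repressor, differed by 0.23 with overlap. Of 7 Id and E protein genes, 5 had higher means in MG. Id4, an Id protein that can bind Hes1, read 7.68, 7.81 and 7.47 in MG cultures and 7.14, 7.13 and 6.96 in PBS cultures. All MG cultures were above all PBS cultures, by 0.58 on average (standard error 0.13, unadjusted p = 0.00243 and adjusted p = 0.9998 in limma). Id3 differed by 0.26, with overlap.

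**Figure D5:**
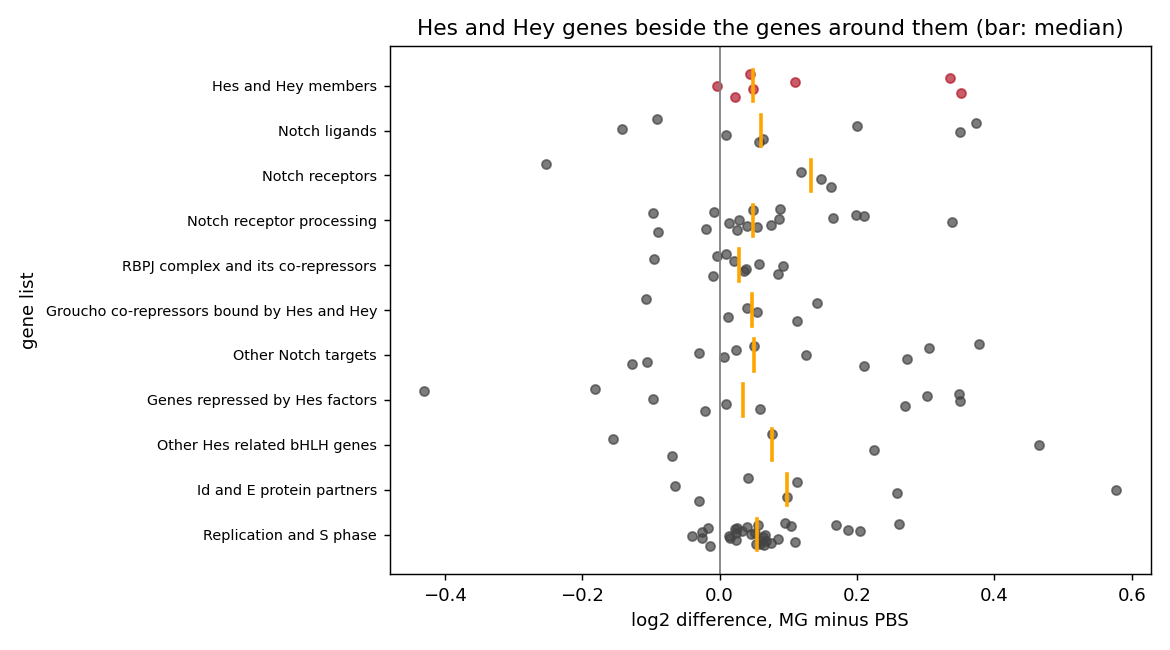
Log2 difference, MG minus PBS (horizontal axis), of the Hes and Hey genes (red) and of the genes in each list around them (grey), each point a gene and each orange bar a list's median. The medians of the lists lie between 0.03 and 0.13, beside 0.05 for the Hes and Hey genes, and the point farthest to the right is Id4 at 0.58.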

How the data were processed

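RNA was measured on 6 arrays, 3 MG and 3 PBS. The authors' deposited table gives 1 value per probe set and array, taken as log2 from the range of 0.73 to 13.81, and array medians lay between 5.25 and 5.42. The software was Partek 6.6, per the submitters' processing notes. Background correction, normalisation and genome build are not stated in the sources used here. For arrays, their number limits the precision. Of 41345 probe sets, 23521 named 1 gene, 1814 several and 16010 were unnamed here, and symbols were updated through Entrez IDs in the RefSeq table of GRCm38.p6. A gene with several probe sets was represented by its brightest one over the 6 arrays, and no gene was filtered out.

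MG minus PBS was fitted with limma 3.58.1 in R 4.3.3 (lmFit, eBayes, two-sided, no covariate), with Benjamini-Hochberg adjustment over 22180 genes and a threshold of 0.05. Exact permutation tests and correlations used numpy 2.4.6 and scipy 1.17.1. On data simulated for this comparison over 22180 genes, with 50 genes changed per fold in each of 20 runs, 5.4% of genes changed 1.5-fold were recovered and 62% at 2-fold. The members and gene lists were chosen with earlier results of these data known. Genes named from each list were the 2 with the smallest p, apart from those named for their role, and the 3 most like each member by r, leaving out gene models and small RNAs. Some listed genes are not reported here. The replicate numbers were not taken to pair the cultures, since the labels state no pairing. Deviations of same-numbered cultures from their group means correlated at 0.22, 0.04 and 0.45. These values do not decide whether the cultures were paired, because cultures with unlike numbers were not compared. The fit was repeated without dim genes, with all or averaged probe sets, after quantile normalisation or median centring, with other moderation, array weights or the replicate block, and with arrays left out.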

Additional observations from a re-analysis of the deposited data

How the results depend on the processing

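No gene passed the adjusted threshold in any of 17 settings, and the adjusted p of the 7 members stayed between 0.913 and 0.99999. The unadjusted count of 712 genes was 294 with dim genes left out, 1288 with all probe sets, 1163 with array weights and 416 to 956 with 1 array left out. With the replicate number as a block it was 1063, and the unadjusted p was 0.0462 for Hes5 and 0.0242 for Hey2, with no adjusted call. The unadjusted p of Hey2 was 0.0762 in the fit without moderation and 0.0656 with all probe sets. Over the alternative settings, the unadjusted p of the linear model ran from 0.0167 to 0.176 for Hey2 and from 0.00741 to 0.395 for Hes5. Hey2, Hes5 and Hey1 kept a higher mean in MG throughout, and with 1 array left out ran from 0.25 to 0.45, from 0.18 to 0.58 and from 0.03 to 0.16. Turns of direction fell on differences near 0. With array weights Hes6 was -0.16 and Heyl -0.0136. Without both arrays numbered 3, Hes6 was -0.20, Heyl -0.0252 and Hes7 0.0233. Hes7 was 0.0209 with averaged probe sets, 0.0009 with quantile normalisation and 0.0374 with median centring, and Hes1 was -0.0009 with quantile normalisation. With 1 array left out Hes1 ran from -0.0726 to 0.142, Hes6 from -0.158 to 0.256, Hes7 from -0.100 to 0.0485 and Heyl from -0.0056 to 0.102. The cause of these turns was not tested. The 1 pair of members with an unadjusted p under 0.05 became 0 pairs with Spearman's rho, 4 with group means removed, 3 with quantile normalisation and 0 to 2 with 1 array left out. For the count with group means removed, values were still permuted across the groups. The subtraction does not strictly allow this, so that count is only a description. With 1 array left out, r ran from -0.18 to 0.78 for Hes5 and Hey2 and from -0.40 to 0.56 for Hes1 and Hes5, and without the 2 arrays farthest from the median it was -0.53 and -0.75. The r of Hes6 and Heyl was 0.56 with quantile normalisation.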
